A study of Homo sapiens with 48 samples.

Results

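The genes described are 9 genes of MHC class I antigen presentation, taken from the deposited table by their symbols: HLA-B, HLA-C, HLA-E, HLA-F, B2M, TAP1, TAP2, TAPBP and ERAP1. The symbols were chosen with earlier results of these data known. They are 9 of the 19102 genes of the table. HLA-B and HLA-C encode classical class I heavy chains, HLA-E and HLA-F encode non-classical heavy chains, and B2M encodes the light chain, beta-2 microglobulin. TAP1 and TAP2 form the peptide transporter of the endoplasmic reticulum, TAPBP encodes tapasin, which holds empty heavy chains at that transporter, and ERAP1 is a peptidase that trims peptides there.

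Polyadenylated RNA was sequenced in 48 libraries of A382 cells, a human glioblastoma line. A382_P53 cells carried a doxycycline-inducible p53 vector and A382_PCW cells a control vector, and both were taken at day 2 of doxycycline (2 libraries each). All other libraries came from A382 cells at day 9 after lentiviral infection with guide RNAs, so the controls were infected too. Guides against BRD8 and H2AZ had 4 libraries each (2 guides with 2 replicates), and guides against EP400, TIP60, TRRAP, GAS41, ACTL6A, MRGBP, ING3, DMAP1, MEAF6, VPS72, RUVBL1, RUVBL2, MORF4L1 and MORF4L2 had 2 each, 1 per guide. The control guides sgNeg1, sgNeg2, sgNeg3 and sgNeg4 had 2 libraries each. BRD8, EP400 and the others named are subunits of the EP400/TIP60 chromatin complex, which acetylates histones and exchanges the histone variant H2A.Z, and the libraries ask how gene expression changes when a subunit, or H2A.Z, is lost or when p53 is expressed. Guides act in a pool of infected cells, the inducible vector raises p53 above its usual level, and every value comes from 1 line.

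Class I molecules carry peptides from the inside of a cell to its surface, where cytotoxic T cells read them. The proteasome cuts proteins into peptides, the TAP transporter brings the peptides into the endoplasmic reticulum, ERAP1 trims them, and tapasin helps to load them onto a heavy chain paired with B2M. The promoters of heavy chain genes and of B2M hold an enhancer bound by NF-kappa B, a response element bound by interferon regulatory factors such as IRF1, and the SXY module, which recruits RFX and NFY proteins together with NLRC5. Interferon raises most of these genes, and many tumours, gliomas among them, vary in how much class I they carry.

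The deposited values are FPKM, fragments per kilobase of transcript scaled to sequencing depth, and 1 FPKM stood for 4.22 to 21.1 fragments per kilobase in the different libraries. The table has 5 sections that were normalized separately, so a knockout was compared only with the sgNeg pair of its section, and A382_P53 with A382_PCW. MEAF6 guide 2 and VPS72 guide 2 held the same value in all 19102 genes, and neither was used, which leaves 46 libraries and 1 library for each of these knockouts. The mRNA of the targeted gene was lower in every knockout library than in both its controls for 14 of 16 knockouts, with TRRAP at 82.3% and MORF4L1 at 103.4% of control (a cut in a gene need not lower its mRNA). VIM and CD44 were at 926 FPKM or more and at 118 FPKM or more in all 46 libraries, GFAP and OLIG2, astrocyte and glial lineage markers, stayed at or below 0.347 FPKM, and SOX2 and NES, of neural progenitors, reached 1 FPKM in 40 and 4. Of the markers of immune cells, PTPRC, CD3E, LYZ and CD74 reached 1 FPKM in 0 of the 46 libraries, CD14 in 4 and ITGAM in 2, and of the endothelial markers PECAM1 and CDH5 did in 0 and VWF in 2. In such bulk RNA a change in the number of expressing cells and a change per cell cannot be told apart.

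The promoters of the members are shown because those of the heavy chains and B2M share letters that those of TAP1, TAP2 and TAPBP lack. RefSeq windows of 300 bases, from 250 before to 50 after the start site, on build GRCh38.p14 (the authors' build was hg19) were matched for 8 of 9 members; HLA-E was not matched. The windows lie at chr6:31357130-31357429 on the minus strand (HLA-B), chr6:31272043-31272342 on the minus strand (HLA-C), chr15:44711267-44711566 on the plus strand (B2M), chr6:32853655-32853954 on the minus strand (TAP1, the first of its 2 windows), chr6:32838690-32838989 on the minus strand (TAP2) and chr6:33314029-33314328 on the minus strand (TAPBP). They are printed 5′ to 3′ on the gene's strand, with matched motif letters in capitals.
HLA-B promoter: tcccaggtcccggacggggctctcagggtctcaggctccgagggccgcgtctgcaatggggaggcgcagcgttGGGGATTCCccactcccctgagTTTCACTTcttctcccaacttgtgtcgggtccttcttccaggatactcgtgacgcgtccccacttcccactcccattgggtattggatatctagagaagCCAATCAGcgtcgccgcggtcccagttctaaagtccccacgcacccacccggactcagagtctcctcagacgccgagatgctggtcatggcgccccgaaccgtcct
HLA-C promoter: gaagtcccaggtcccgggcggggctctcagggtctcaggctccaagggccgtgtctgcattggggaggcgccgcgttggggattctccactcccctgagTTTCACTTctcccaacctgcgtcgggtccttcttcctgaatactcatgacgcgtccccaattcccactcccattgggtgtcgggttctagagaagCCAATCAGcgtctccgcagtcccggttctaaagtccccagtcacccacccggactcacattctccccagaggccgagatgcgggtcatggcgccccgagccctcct
B2M promoter: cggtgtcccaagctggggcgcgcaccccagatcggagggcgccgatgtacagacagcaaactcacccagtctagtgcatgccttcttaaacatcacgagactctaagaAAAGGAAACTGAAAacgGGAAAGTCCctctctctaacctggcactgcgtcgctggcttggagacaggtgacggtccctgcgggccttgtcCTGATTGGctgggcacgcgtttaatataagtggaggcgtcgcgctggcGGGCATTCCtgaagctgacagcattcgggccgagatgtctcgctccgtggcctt
TAP1 promoter: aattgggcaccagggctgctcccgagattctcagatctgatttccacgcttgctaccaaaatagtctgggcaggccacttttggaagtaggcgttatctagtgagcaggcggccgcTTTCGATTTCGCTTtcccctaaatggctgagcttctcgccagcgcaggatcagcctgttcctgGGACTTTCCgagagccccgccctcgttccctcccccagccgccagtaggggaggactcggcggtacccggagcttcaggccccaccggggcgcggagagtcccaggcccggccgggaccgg
TAP2 promoter: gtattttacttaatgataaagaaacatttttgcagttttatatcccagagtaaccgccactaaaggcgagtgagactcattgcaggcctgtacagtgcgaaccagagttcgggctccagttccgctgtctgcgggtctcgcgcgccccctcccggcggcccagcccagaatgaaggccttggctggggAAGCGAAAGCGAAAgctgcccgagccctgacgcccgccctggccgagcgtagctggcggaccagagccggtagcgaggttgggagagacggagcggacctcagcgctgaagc
TAPBP promoter: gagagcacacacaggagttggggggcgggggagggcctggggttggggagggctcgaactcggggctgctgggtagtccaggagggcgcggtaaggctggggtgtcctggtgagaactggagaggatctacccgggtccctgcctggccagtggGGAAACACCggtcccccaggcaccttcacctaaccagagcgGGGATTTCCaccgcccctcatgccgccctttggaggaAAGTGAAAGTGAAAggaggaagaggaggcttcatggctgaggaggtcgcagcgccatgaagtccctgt

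The motifs searched on both strands were CCAATCAG (the Y box letters of the SXY module), AANNGAAA (a core recognised by interferon regulatory factors), GGGNNTTCC and GGNNTTTCC (kappa B cores, which can overlap) and the half-site of p53, given by name. The Y box letters were found in HLA-B and HLA-C at -56 from the start site, in HLA-F at -57 and, on the other strand, in B2M at -52, and in 0 of the windows of TAP1, TAP2, TAPBP and ERAP1. Of all 35116 windows of this length, 3.97% held them. The interferon regulatory factor core, in 22.8% of all windows, was chosen after the windows were seen. Its presence in the members is therefore no test against that share. It stood in a window of each of the 8 matched members: in HLA-B at -155, HLA-C at -151, HLA-F at -156, B2M at -142 and -136, TAP1 at -134 and -128, TAP2 at -62 and -56, TAPBP at -18 and -12, and both windows of ERAP1. The second TAP1 window lacked it. In B2M, TAP1, TAP2, TAPBP and the second ERAP1 window it occurs in overlapping copies. A kappa B core, in 6.58% (GGGNNTTCC) and 6.26% (GGNNTTTCC) of all windows, stood in HLA-B, B2M, TAP1, TAPBP and 1 window of ERAP1, and not in HLA-C. In TAPBP the capitals at -55 match both cores. The p53 half-site, in 6.63% of all windows, was found in none of the members' windows. A match of letters is not a bound site, and a missing match says only that the letters are not in this window.

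Against their own controls, 6 of 16 knockouts changed at least 1 member and 10 changed none, by limma with an adjusted p under 0.05 over all tested genes ("called" below). Over 127 tests of a member in a knockout, 16 were called, 6 higher and 10 lower. They were 5 in BRD8 knockout (45.9% of all genes called), 4 in TIP60 (42.0%) and 2 in RUVBL2 (33.4%). RUVBL1 had 2 (27.8%), TRRAP 2 (14.2%) and EP400 1 (3.83%). In the 10 knockouts with no call at most 6.02% of all genes were called. HLA-B was called higher in 4 knockouts and lower in 0, with log2 fold changes from -0.41 to 0.97, and TAPBP was called lower in 6 and higher in 0, with changes from -1.08 to 0.065. HLA-E was called higher in 2, TAP1 lower in 2, HLA-C lower in 1 and ERAP1 lower in 1, while B2M and TAP2 were called in 0 of 16. Counts at an unadjusted p under 0.05 are given below for the 10 knockouts with no call. In the other 6 they were 5 of 7 members in BRD8 (4548 of 8458 genes), 4 of 8 in TIP60 (5687 of 11382) and 4 of 8 in TRRAP (3516 of 11382). They were 2 of 8 in EP400 (2237 of 11382), 3 of 8 in RUVBL1 (4515 of 11063) and 2 of 8 in RUVBL2 (4895 of 11063). Since knockouts of 1 section use the same sgNeg libraries, the counts depend on each other.

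**Figure D1:**
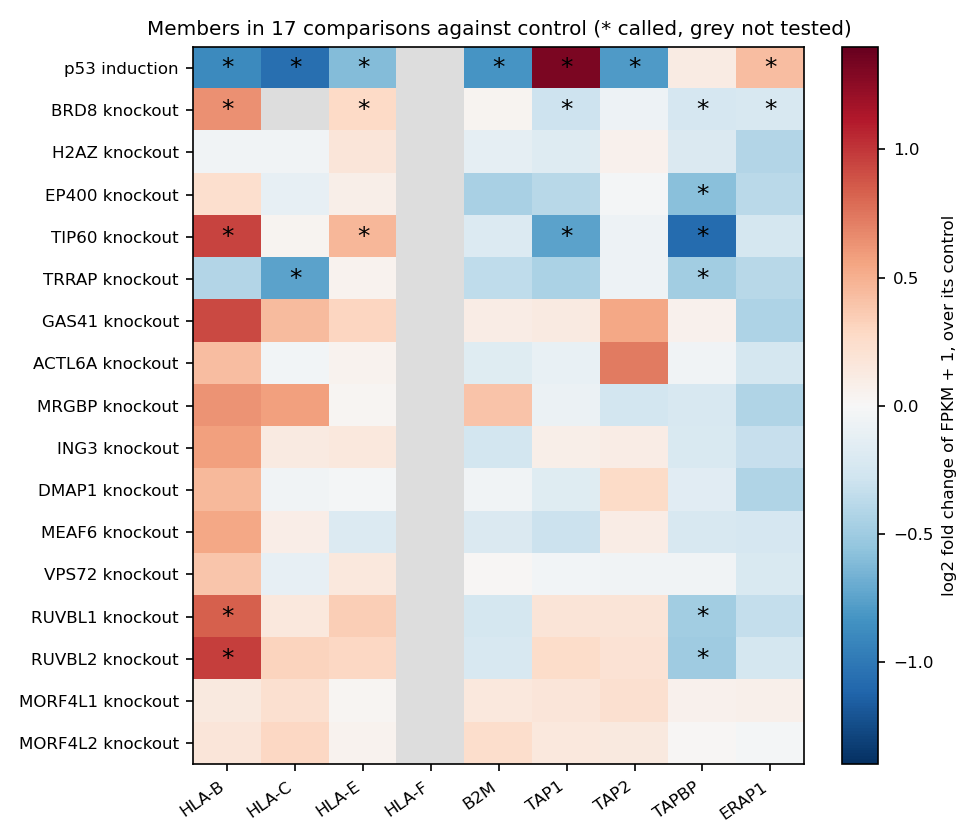
Log2 fold change of FPKM + 1 of the 9 members (columns) over the control of the section, for p53 induction and 16 knockouts (rows). Stars mark values called by limma and grey marks values not tested. The HLA-B column is red in 14 of 16 knockouts, with 4 stars, and blue for p53 induction, and the TAPBP column is blue in 13 of 16 knockouts, with 6 stars.

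The share of all genes that were called sets the background for these counts. It was 84.3% for p53 induction, 45.9% for BRD8, 42.0% for TIP60, 33.4% for RUVBL2, 27.8% for RUVBL1, 14.2% for TRRAP, 6.02% for H2AZ, 3.83% for EP400, 0.940% for GAS41, 0.782% for ACTL6A, 0.264% for MRGBP, 0.0264% for ING3 and 0% for DMAP1, MEAF6, VPS72, MORF4L1 and MORF4L2. Libraries that all lie above or below both controls are common with so few libraries. In knockouts with no call, this held for 0 of 8 members in MORF4L2, 6 of 8 in DMAP1 and 8 of 8 in MEAF6. Where no share of all genes is given beside such a separation, it was not worked out, and the separation is a description only. Levels of HLA genes carry an uncertainty of their own, since the genes are near-identical copies of each other and vary between people, and reads can be split or lost between them. The labels state no separate cultures, so the spread between libraries of the same guide or vector may be technical. The fit treats the guides of a target as replicates, so the spread within a knockout also holds differences between guides.

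HLA-F was close to absent. It had at most 0.341 FPKM in any of the 46 libraries, was listed at 0 in 3 of them, and passed the filter on low values in no section, so it has no test. Every other member was above 1 FPKM in all 46 libraries except HLA-C, which was at 0.470 to 0.767 FPKM in the 6 libraries normalized with sgNeg1 and was not tested there. With sgNeg2, sgNeg3 and sgNeg4, HLA-C ran from 6.26 to 23.1, 11.1 to 18.4 and 12.4 to 19.2 FPKM. HLA-B had no such gap, at 21.0 to 38.8 FPKM with sgNeg1 and 14.9 to 63.4 FPKM with sgNeg2, and TAP1 and ERAP1 overlapped as well. Other members were lower with sgNeg1 too. HLA-E was at 5.87 to 7.95 FPKM with sgNeg1 and 22.7 to 46.2 FPKM with sgNeg2. TAPBP was at 6.17 to 8.21 FPKM and 10.5 to 29.2 FPKM in the same order, and B2M and TAP2 did not overlap either. The summed FPKM of a library was 147630 to 175420 with sgNeg1 and 320150 to 467070 with sgNeg2. Why HLA-C and these other members differ between sections was not tested.

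With p53 induced, the heavy chains and the light chain fell and TAP1 rose. HLA-B was at 119 and 111 FPKM in A382_P53 and at 213 and 214 FPKM in A382_PCW. HLA-C was at 52.0 and 47.1 FPKM in A382_P53 and at 103 and 106 FPKM in A382_PCW. HLA-E was at 24.7 and 25 FPKM in A382_P53 and at 38.8 and 38.1 FPKM in A382_PCW. In each of these genes both p53 libraries were below both controls, and the spread within a pair was small beside the gap. B2M, the partner of every class I heavy chain, was at 897 and 972 FPKM in A382_P53 and at 1690 and 1630 FPKM in A382_PCW. The log2 fold change was -1.06 ± 0.057 (SE) for HLA-C (adjusted p = 1.83e-06), -0.89 ± 0.049 for HLA-B (2.07e-06), -0.83 ± 0.053 for B2M (4.41e-06) and -0.61 ± 0.049 for HLA-E (1.47e-05), by limma with n = 2 against 2. HLA-C thus stood at 47.5% of A382_PCW, HLA-B at 53.9%, B2M at 56.3% and HLA-E at 64.8%.

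The subunits of the peptide transporter moved in opposite directions. TAP1 was at 96.2 and 94.3 FPKM in A382_P53 and at 37.4 and 37.8 FPKM in A382_PCW. TAP2 was at 15.9 and 14.7 FPKM in A382_P53 and at 27.2 and 27.3 FPKM in A382_PCW. The pairs do not overlap in either gene, with TAP1 higher and TAP2 lower in both p53 libraries. TAP1 rose by 1.32 ± 0.044 on the log2 scale (limma, adjusted p = 1.88e-07), and TAP2 had a log2 fold change of -0.80 ± 0.059 (9.94e-06). The ratio of TAP1 to TAP2 within a library, both per length, was 6.05 and 6.41 in A382_P53, against 1.37 and 1.38 in A382_PCW. It lay between 0.920 and 3.58 in the 42 guide RNA libraries, which belong to other sections. ERAP1 rose as well, at 10.8 and 10.8 FPKM in A382_P53 against 7.75 and 7.75 FPKM in A382_PCW (0.43 ± 0.064, adjusted p = 0.000464). TAPBP was at 17.5 and 19.0 FPKM in A382_P53 and at 15.8 and 17.7 FPKM in A382_PCW, pairs that overlap, and was not called (0.12 ± 0.074, adjusted p = 0.167).

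**Figure D2:**
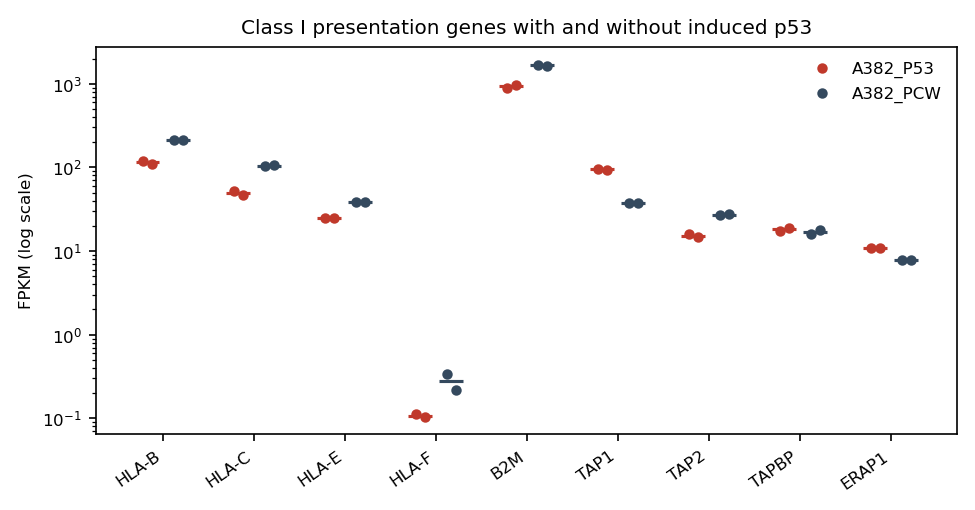
FPKM (log scale) of the 9 members in the 2 A382_P53 libraries (red, left of each pair) and the 2 A382_PCW libraries (dark blue); points are libraries and bars their means. TAP1 is higher in both p53 libraries (means 95.2 and 37.6 FPKM), and HLA-B, HLA-C, HLA-E, B2M and TAP2 are lower.

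Of the 8 tested members, 2 were called higher and 5 lower after p53 induction, close to the 84.3% of all genes that were called. The median log2 fold change was -0.70 over the 8 members tested and -0.13 over all genes. All 7 calls held under each of 9 alternative settings. With each library of the section rescaled to the same median, the median over all genes was -0.0082 and TAPBP was called higher as well (0.24, adjusted p = 0.0176).

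The regulators of class I genes split in the same comparison. IRF1, an activator of class I and immunoproteasome genes, was at 58.6 and 57.6 FPKM in A382_P53 and at 7 and 7.76 FPKM in A382_PCW (2.82 ± 0.063, adjusted p = 3.77e-08 by limma). NFKB1, which encodes the p50 subunit of NF-kappa B, averaged 37.2 ± 1.5 FPKM in A382_P53 and 8.28 ± 0.300 FPKM in A382_PCW (SD, n = 2 each). NLRC5, the coactivator of class I promoters, was at 0.912 and 1.37 FPKM in A382_P53 and at 7.59 and 7.91 FPKM in A382_PCW (-2.04 ± 0.11, adjusted p = 2.12e-06). RFX5, a subunit of the RFX complex that NLRC5 works with, averaged 6.56 ± 0.795 FPKM in A382_P53 and 20.5 ± 0.404 FPKM in A382_PCW. IRF1 and NFKB1 were thus higher, and NLRC5 and RFX5 lower, in both p53 libraries than in both controls. Of the 14 regulators listed, all tested, 4 rose and 9 fell, with a median of -0.46. Over all genes 84.3% were called, with a median of -0.13. CIITA, on the same list, passed the filter through the A382_P53 libraries alone.

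The proteasome subunits and activators that serve antigen processing also went both ways, with 1 higher and 4 lower of 6. The share of all genes called was 84.3%. PSMB9, an immunoproteasome subunit whose start site lies 488 bases from that of TAP1 on the opposite strand, was at 15.1 and 13.4 FPKM in A382_P53 and at 25.8 and 29.3 FPKM in A382_PCW (-0.91 ± 0.082, adjusted p = 2.94e-05 by limma). PSMB9 therefore fell where TAP1, its divergent neighbour, rose. PSME2, a subunit of the proteasome activator PA28, averaged 140 ± 2.67 FPKM in A382_P53 and 76.1 ± 4.86 FPKM in A382_PCW, while its partner PSME1 averaged 85.6 ± 0.699 FPKM in A382_P53 and 139 ± 2.61 FPKM in A382_PCW (SD, n = 2 each). PSME3, of a related activator, had a log2 fold change of -0.79 ± 0.047.

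**Figure D3:**
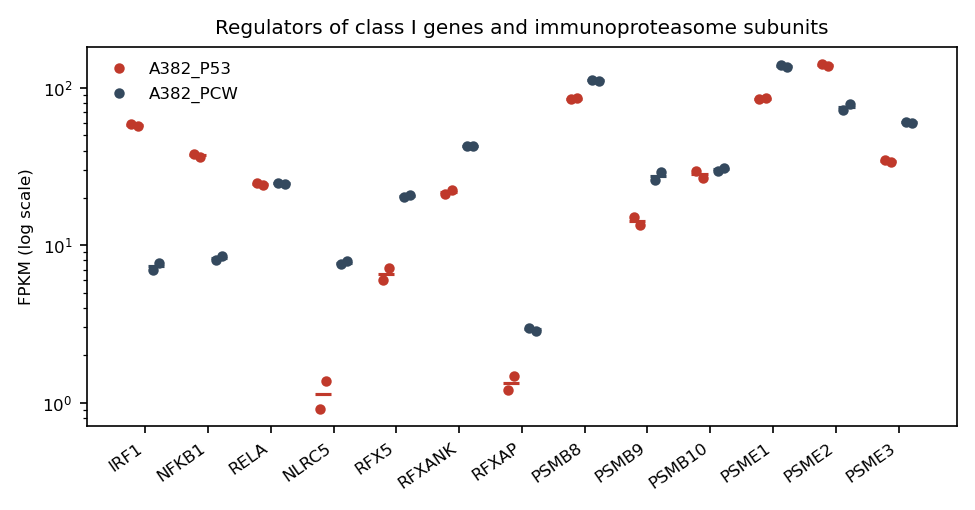
FPKM (log scale) of regulators of class I genes and of immunoproteasome and PA28 subunits in the 2 A382_P53 libraries (red, left) and the 2 A382_PCW libraries (dark blue); points are libraries and bars their means. IRF1, NFKB1 and PSME2 are higher in both p53 libraries, and NLRC5, RFX5, RFXANK, RFXAP, PSMB8, PSMB9, PSME1 and PSME3 are lower.

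Loading chaperones and editors had 4 higher and 3 lower of 8 in A382_P53, with 84.3% of all genes called. TAPBPL (TAPBPR), a tapasin-related peptide editor, averaged 12.9 FPKM in A382_P53 and 4.6 FPKM in A382_PCW (log2 fold change 1.31 ± 0.099, adjusted p = 1.04e-05 by limma), ERAP2, the partner trimming peptidase, 44.7 FPKM in A382_P53 and 23.2 FPKM in A382_PCW (0.92 ± 0.054), and SEC61A1, a subunit of the translocon, 272 FPKM in A382_P53 and 153 FPKM in A382_PCW (0.83 ± 0.040). PDIA3 (ERp57), which sits in the loading complex with tapasin, had a log2 fold change of -0.78 ± 0.062. Of 6 cytosolic peptidases, 1 rose, BLMH (bleomycin hydrolase, 1.33 ± 0.050), and 4 fell, among them NPEPPS (-0.54 ± 0.061) and LAP3 (-0.46 ± 0.050).

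Other surface ligands moved in both directions too, with 84.3% of all genes called. Of 14 class I-like proteins and NK cell ligands, 10 were tested, 7 rose and 3 fell, including ULBP1, a ligand of the activating receptor NKG2D (1.37 ± 0.053), ULBP2 (0.95 ± 0.090), PROCR (0.68 ± 0.041) and FCGRT, the neonatal Fc receptor, which also pairs with B2M (1.15 ± 0.054). Of the 10, MICB passed the filter through the A382_P53 libraries alone and had to differ, and RAET1G reached 1 FPKM in only 1 A382_PCW library. Of 7 checkpoint ligands in the table, LGALS9 (galectin 9) rose by 2.92 ± 0.14, and PVR (-1.18 ± 0.048), PVRL2 (-1.07 ± 0.054), CD274 (PD-L1, -1.31 ± 0.087) and CD276 (-0.63 ± 0.051) fell. Of 11 class II genes, 4 passed the filter, each through 1 group alone, so these had to differ. HLA-DMB, HLA-DOA and CTSS passed through A382_P53, and HLA-DMA through A382_PCW. HLA-DMB, a peptide editor of class II, was at 12 and 11.9 FPKM in A382_P53 against 0 and 0.0631 FPKM in A382_PCW. CIITA, the class II transactivator, also passed through its p53 libraries alone, at 1.36 and 1.07 FPKM in A382_P53 against 0.0165 and 0 FPKM in A382_PCW.

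Interferon signalling genes gave no single direction. SOCS1, an inhibitor of that pathway, averaged 6.56 FPKM in A382_P53 and 0.660 FPKM in A382_PCW (log2 fold change 2.21 ± 0.16, adjusted p = 9.27e-06 by limma). SOCS1, OAS1, IFIT1 and MX1 passed the filter through the A382_P53 libraries alone. GBP1, GBP2, HERC6 and IFI44L passed it through the A382_PCW libraries alone, so all of these had to differ. NLRC5 and LGALS9 reached 1 FPKM in only 1 of the 2 libraries of the group where they are low. Of 12 receptors and transducers, 6 rose and 4 fell. Of the 27 interferon-stimulated genes listed, 20 were tested, among them those that passed through 1 group alone, and 9 rose and 10 fell. In this comparison 84.3% of all genes were called. OAS1 (2.70 ± 0.094) and ISG15 (1.57 ± 0.052) rose, whereas GBP2 (-3.38 ± 0.089) and SAMD9 (-2.38 ± 0.078) fell.

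BRD8 knockout raised HLA-B and HLA-E and lowered TAP1, TAPBP and ERAP1. HLA-B was at 36.0, 37.0, 38.8 and 31.8 FPKM in the BRD8 libraries and at 21.0 and 24.2 FPKM in sgNeg1. HLA-E was at 7.65, 7.93, 7.95 and 7.58 FPKM in the BRD8 libraries and at 5.87 and 6.63 FPKM in sgNeg1. All 4 BRD8 libraries were above both controls in both genes. TAP1 was at 9.16, 8.94, 8.92 and 8.59 FPKM in the BRD8 libraries and at 10.8 and 11.4 FPKM in sgNeg1. TAPBP was at 6.17, 6.52, 6.57 and 6.29 FPKM in the BRD8 libraries and at 7.21 and 8.21 FPKM in sgNeg1. ERAP1 was at 4.39, 3.68, 4.49 and 4.26 FPKM in the BRD8 libraries and at 5.18 and 4.96 FPKM in sgNeg1. For these 3 genes all 4 BRD8 libraries lay below both controls. B2M, at 401, 409, 435 and 386 FPKM in the BRD8 libraries and 381.9 and 411 FPKM in sgNeg1, overlapped.

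By limma with n = 4 against 2, the log2 fold change was 0.64 ± 0.085 for HLA-B (adjusted p = 0.000284), 0.28 ± 0.065 for HLA-E (0.00644), -0.29 ± 0.058 for TAP1 (0.00297), -0.24 ± 0.067 for TAPBP (0.0169) and -0.22 ± 0.078 for ERAP1 (0.0376). The 5 calls of 7 tested members stand against 45.9% of all genes. HLA-B and TAP1 kept their calls under all 13 alternatives. HLA-E lost its call without sgNeg1 replicate 1 (0.20, adjusted p = 0.0897) and TAPBP without sgNeg1 replicate 2 (-0.15, 0.182). ERAP1 lost it without sgNeg1 replicate 1 (0.191), sgNeg1 replicate 2 (0.106), guide 1 replicate 2 (0.0608) or guide 2 replicate 2 (0.0516), and with no filter (0.0765). With guide 2 alone TAPBP (0.0515) and ERAP1 (0.0947) were not called. The 2 BRD8 guides did not differ in any of 7 members by limma (0 called, against 0.0118% of all genes, and 0 at an unadjusted p under 0.05, against 11.2%), with differences, guide 2 minus guide 1, from -0.10 to 0.099 on the log2 scale.

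Partner genes of the pathway moved in both directions in BRD8 knockout, with 45.9% of all genes called. Of 6 immunoproteasome and PA28 genes, 0 rose and 3 fell: PSME1 averaged 93.8 FPKM in the BRD8 libraries and 129 FPKM in sgNeg1 (log2 fold change -0.45 ± 0.061, adjusted p = 0.000313 by limma), PSME2 202 FPKM in the BRD8 libraries and 280 FPKM in sgNeg1 (-0.47 ± 0.078), and PSMB8 15.4 FPKM in the BRD8 libraries and 19.6 FPKM in sgNeg1 (-0.33 ± 0.074). Of 8 loading chaperones and editors 1 rose, SEC61A1 (0.46 ± 0.056), and 3 fell, among them CALR (calreticulin, -0.39 ± 0.068) and PDIA3 (-0.35 ± 0.058). Of 6 peptidases 1 rose, IDE (0.40), and 1 fell, BLMH (-0.29), and of 10 tested interferon receptors and transducers 3 rose, among them IFNGR1 (0.35), and 2 fell, IFNGR2 (-0.37) and JAK2 (-0.35). Among 11 tested regulators 2 rose, NFYA (0.33 ± 0.069) and NFKB1 (0.27 ± 0.064), and 3 fell, among them NLRC5 (-0.33 ± 0.077) and RFX5 (-0.28 ± 0.066). NFYA reached 1 FPKM in 4 BRD8 libraries and 0 sgNeg1 libraries and NLRC5 in 0 BRD8 and 2 sgNeg1 libraries, so each passed the filter through the group where it is high and had to differ. Of 20 tested interferon-stimulated genes 0 rose and 10 fell, with a median of -0.42, against 0.020 over all genes. Among these 10, 1 gene reached 1 FPKM in only 1 BRD8 library and in 2 sgNeg1 libraries. Any link between these genes and HLA-B or HLA-E was not tested.

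In the libraries normalized with sgNeg2, TIP60 knockout raised HLA-B and HLA-E and lowered TAP1 and TAPBP. TIP60 (KAT5) is the acetyltransferase of the complex, EP400 its exchange ATPase and TRRAP its scaffold. HLA-B was at 63.4 and 36.3 FPKM in TIP60 libraries (guide 1 and guide 2), 29.8 and 28.1 in EP400 and 22.3 and 14.9 in TRRAP, against 25.5 and 23.5 FPKM in sgNeg2. TAPBP was at 13.8 and 10.5 FPKM in TIP60 libraries, 17.7 and 17.1 in EP400 and 20.7 and 16.8 in TRRAP, against 26.9 and 26.2 FPKM in sgNeg2. TAPBP was below both controls in all 6 of these libraries, while HLA-B was above them in TIP60 and EP400 and below them in TRRAP. TAP1 was at 12 and 8.16 FPKM in TIP60 libraries, 13.9 and 12.3 in EP400 and 15.9 and 9.90 in TRRAP, against 18.5 and 16.4 FPKM in sgNeg2. HLA-E was at 46.2 and 28.4 FPKM in TIP60 libraries, 27.3 and 27.9 in EP400 and 26.6 and 27.5 in TRRAP, against 26.7 and 25.4 FPKM in sgNeg2. The TIP60 guides stood far apart for HLA-B and HLA-E, with guide 1 the higher one, and less far for TAPBP.

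**Figure D4:**
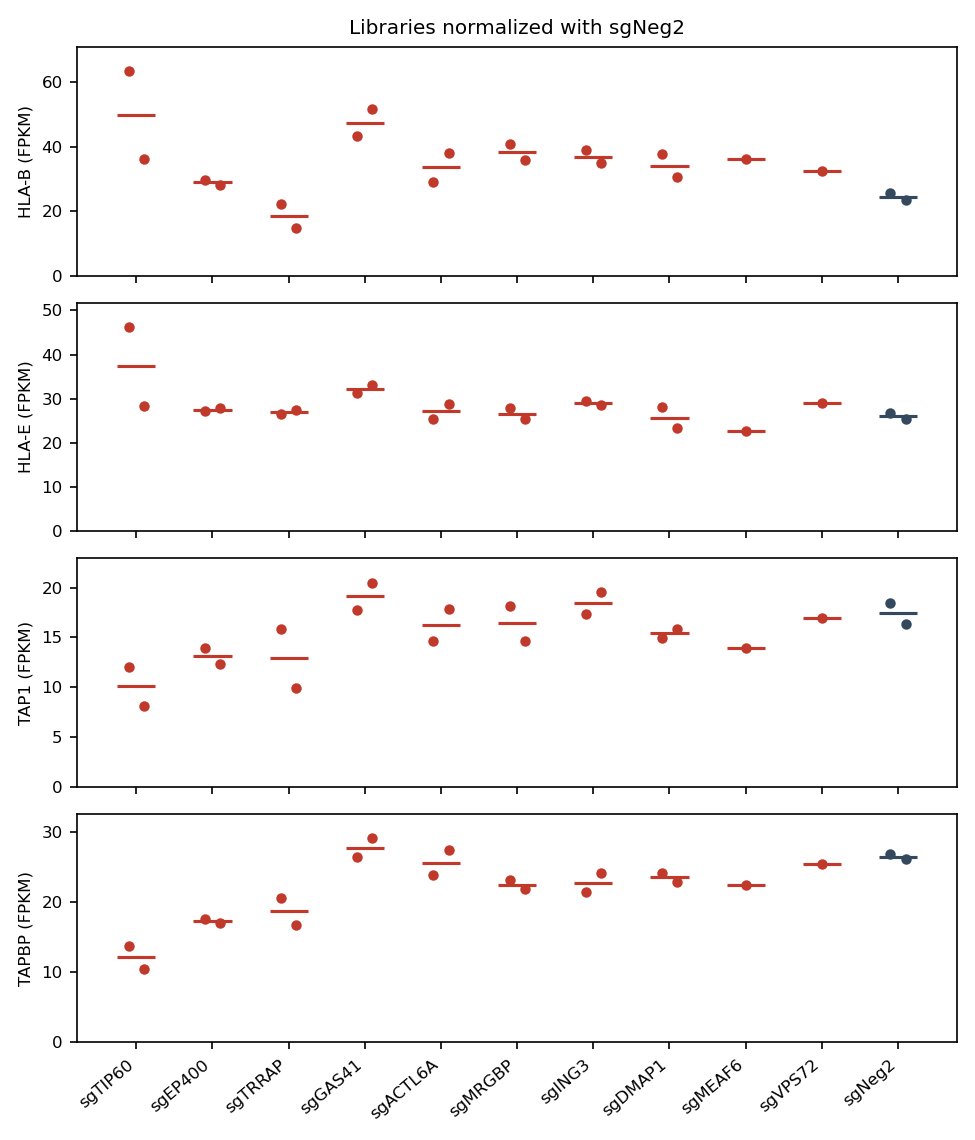
FPKM of HLA-B, HLA-E, TAP1 and TAPBP in each library normalized with sgNeg2, with knockouts in red and sgNeg2 in dark blue at the right; points are libraries, 1 per guide in the knockouts, and bars their means. In TIP60 knockout HLA-B averages 49.8 FPKM and TAPBP 12.2 FPKM, against 24.5 and 26.5 FPKM in sgNeg2.

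In TIP60 knockout, by limma with n = 2 against 2, the log2 fold change was -1.08 ± 0.14 for TAPBP (adjusted p = 2.99e-05), 0.94 ± 0.23 for HLA-B (0.00371), -0.75 ± 0.20 for TAP1 (0.00689) and 0.46 ± 0.17 for HLA-E (0.0387). The 4 calls of 8 tested members are close to the 42.0% of all genes called. TAPBP held its call under all 11 alternatives. HLA-B lost it without TIP60 guide 1 (0.55, adjusted p = 0.0666) and TAP1 without TIP60 guide 2 (-0.50, 0.0909) or sgNeg2 replicate 1 (-0.67, 0.053). HLA-E rested on guide 1: without it the change was 0.12 (0.528), and the call was also lost when either sgNeg2 library was left out (0.0918 for the first, 0.145 for the second), with no filter on low values (0.0598) and in a fit of these 4 libraries alone (0.15). HLA-C (0.039 ± 0.20), B2M (-0.19 ± 0.24), TAP2 (-0.075 ± 0.16) and ERAP1 (-0.24 ± 0.15) were not called.

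In EP400 knockout, TAPBP was the 1 member called of 8 (-0.58 ± 0.14, adjusted p = 0.0343 by limma), against 3.83% of all genes. Leaving out any 1 of the 4 libraries ended the call, with changes from -0.61 to -0.56: the adjusted p was 0.217 for EP400 guide 1, 0.225 for EP400 guide 2, 0.204 for the first sgNeg2 library and 0.124 for the second. It was 0.0598 with no filter on low values. In TRRAP knockout, HLA-C (-0.75 ± 0.20, adjusted p = 0.0212) and TAPBP (-0.49 ± 0.14, 0.0305) fell, 2 of 8 against 14.2% of all genes. HLA-C was at 9.46 and 6.26 FPKM in TRRAP libraries and at 13 and 14.4 FPKM in sgNeg2, and both TRRAP libraries were below both controls. Both calls were lost without TRRAP guide 2, at adjusted p = 0.337 for HLA-C (-0.49) and 0.364 for TAPBP (-0.35). Both were lost as well when the first sgNeg2 library was left out (0.0794 for HLA-C and 0.146 for TAPBP) or the second (0.102 and 0.0933). HLA-C was at 0.0522 with no filter, and TAPBP at 0.0665 in a fit of these 4 libraries alone. Without TRRAP guide 1, TAP1 (-0.75, 0.0197) and ERAP1 (-0.57, 0.0241) were called in addition.

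Compared directly, TIP60 knockout had more HLA-B (0.71 ± 0.23, adjusted p = 0.0365 by limma) and less TAPBP (-0.49 ± 0.14, 0.02) than EP400 knockout, 2 of 8 members against 21.3% of all genes. The HLA-B difference was lost without TIP60 guide 1 (0.32, adjusted p = 0.377), EP400 guide 1 (0.125) or EP400 guide 2 (0.167), and that of TAPBP without TIP60 guide 2 (-0.31, 0.151), EP400 guide 1 (0.123) or EP400 guide 2 (0.0901). In a fit of these 4 libraries alone neither was called (0.121 for HLA-B and 0.0827 for TAPBP), and with no filter HLA-B was at 0.075. Without TIP60 guide 2, HLA-E was called (0.73, 0.00376). Against TRRAP knockout, TIP60 knockout had more HLA-B (1.35 ± 0.23, adjusted p = 0.000358) and HLA-C (0.79 ± 0.20, 0.00534) and less TAPBP (-0.59 ± 0.14, 0.00399), 3 of 8 against 38.2% of all genes. The HLA-B difference held under all 10 alternatives, and the HLA-C difference was lost without TIP60 guide 1 (0.57, 0.0698) or TRRAP guide 2 (0.53, 0.0833). That of TAPBP was lost in a fit of these 4 libraries alone (0.0561), and with median rescaling HLA-E was called too (0.50, 0.0263). Without TIP60 guide 2, HLA-E was called (0.75, 0.00146), and without TRRAP guide 2, TAP1 was (-0.63, 0.0359). EP400 and TRRAP knockouts differed in 0 of 8 members by limma (2 at an unadjusted p under 0.05, against 21.9% of all genes, with 3.27% called), with HLA-C 0.63 ± 0.20 higher in EP400 (adjusted p = 0.0762). Without TRRAP guide 1, HLA-B (0.91, 0.0409) and HLA-C (0.90, 0.0214) were called there.

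Among the partner genes in TIP60 knockout, 4 of 6 immunoproteasome and PA28 genes and 7 of 13 regulators were called, against 42.0% of all genes. Of 6 immunoproteasome and PA28 genes, 0 rose and 4 fell: PSMB8 averaged 19.2 FPKM in TIP60 libraries and 35.4 FPKM in sgNeg2 (log2 fold change -0.85 ± 0.18, adjusted p = 0.00142 by limma), PSME2 46.4 FPKM in TIP60 libraries and 88.0 FPKM in sgNeg2 (-0.91 ± 0.21), and PSMB10 (-0.80 ± 0.23) and PSME1 (-0.64 ± 0.22) were lower too. Among 13 tested regulators 1 rose, IRF1 (14.7 FPKM in TIP60 libraries and 9.05 FPKM in sgNeg2, 0.63 ± 0.18), and 6 fell, among them RFXANK (-1.15 ± 0.18), RFX5 (-0.74 ± 0.10) and RELA (-0.58 ± 0.16). IRF9, a transcription factor of the type I interferon signal, averaged 7.91 FPKM in TIP60 libraries and 25.4 FPKM in sgNeg2 (-1.57 ± 0.16), and STAT2, its partner, fell by 0.66 on the log2 scale. Of 17 tested interferon-stimulated genes 2 rose and 9 fell, with a median of -0.54, against -0.095 over all genes.

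RUVBL1 and RUVBL2, the paired ATPases of the complex, gave the same members as each other: HLA-B rose and TAPBP fell. HLA-B was at 41.9 and 53.1 FPKM in RUVBL1 libraries and 51.1 and 52.0 in RUVBL2, against 24.3 and 27.6 FPKM in sgNeg3. TAPBP was at 18.6 and 19.3 FPKM in RUVBL1 libraries and 17.5 and 19.9 in RUVBL2, against 26.9 and 26.8 FPKM in sgNeg3. All 4 knockout libraries were above both controls for HLA-B and below them for TAPBP. By limma with n = 2 against 2, HLA-B had a log2 fold change of 0.84 ± 0.23 in RUVBL1 knockout (adjusted p = 0.0249) and 0.97 ± 0.23 in RUVBL2 knockout (0.0115), and TAPBP of -0.48 ± 0.11 (0.0131) and -0.50 ± 0.11 (0.0088) in the same order. These 2 of 8 tested members compare with 27.8% of all genes in RUVBL1 knockout and 33.4% in RUVBL2 knockout. The knockouts share their controls. Between RUVBL2 and RUVBL1 knockouts 0 of 8 members differed by limma (0 at an unadjusted p under 0.05, against 5.37% of all genes, with 0.00904% called), with differences from -0.060 to 0.16.

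**Figure D5:**
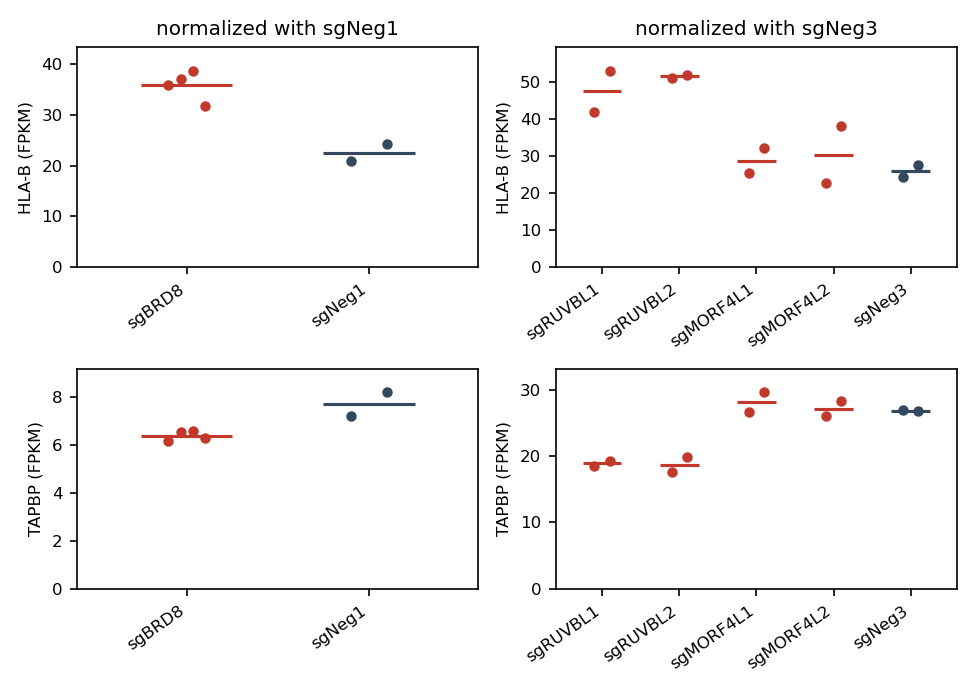
FPKM of HLA-B (top) and TAPBP (bottom) in the libraries normalized with sgNeg1 (left) and with sgNeg3 (right), knockouts in red and controls in dark blue at the right of each panel; points are libraries and bars their means. HLA-B is higher and TAPBP lower than in both controls in all BRD8, RUVBL1 and RUVBL2 libraries. For HLA-B the MORF4L1 libraries overlap with or lie above sgNeg3. The MORF4L2 libraries lie on either side of both controls, with guide 1 below them at 22.6 FPKM.

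With 1 library left out, the RUVBL calls were often lost. In RUVBL1 knockout HLA-B lost its call without guide 2 (0.67, adjusted p = 0.188), sgNeg3 replicate 1 (0.142) or sgNeg3 replicate 2 (0.0903) and with no filter (0.0517), and TAPBP without guide 1 (0.0643), guide 2 (0.0763), sgNeg3 replicate 1 (0.0944) or sgNeg3 replicate 2 (0.0922). In RUVBL2 knockout HLA-B lost it without guide 1 (0.0619), guide 2 (0.0644) or sgNeg3 replicate 1 (0.082), and TAPBP without guide 1 (0.0889), sgNeg3 replicate 1 (0.068) or sgNeg3 replicate 2 (0.0664). HLA-B and TAPBP kept their sign in each of these fits. When only the 4 libraries of a comparison were fitted, HLA-E (0.35, adjusted p = 0.00432), ERAP1 (-0.33, 0.0178) and B2M (-0.25, 0.0174) were called as well in RUVBL1 knockout, and HLA-C (0.31, 0.0119), HLA-E (0.29, 0.0052), TAP1 (0.26, 0.0101) and ERAP1 (-0.25, 0.0261) in RUVBL2 knockout.

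Of 13 tested regulators, 2 rose and 1 fell in RUVBL1 knockout (27.8% of all genes called) and 2 rose and 2 fell in RUVBL2 knockout (33.4%). IRF1 was at 15.3 and 18.5 FPKM in RUVBL1 libraries and 14.2 and 14.7 in RUVBL2, against 7.49 and 6.38 FPKM in sgNeg3 (log2 fold change 1.17 ± 0.16 in RUVBL1 and 0.96 ± 0.16 in RUVBL2, adjusted p = 0.00151 and 0.00214 by limma). RELA, a subunit of NF-kappa B, rose (0.48 ± 0.10 in RUVBL1 and 0.54 ± 0.10 in RUVBL2), and RFX5 fell (-0.74 ± 0.12 and -0.72 ± 0.12). RFXAP, another RFX subunit, fell in RUVBL2 knockout (-0.66, adjusted p = 0.0149). Of the loading chaperones, CALR fell (-0.71 ± 0.19 in RUVBL1 and -0.99 ± 0.19 in RUVBL2), and SEC61A1 (0.53 ± 0.13 and 0.71 ± 0.13) and TAPBPL (0.47 ± 0.15 and 0.64 ± 0.15) rose. Of 6 immunoproteasome and PA28 genes 0 were called in either. Of 15 tested interferon-stimulated genes 0 rose and 5 fell in RUVBL1 knockout (median -0.47, against -0.024 over all genes), and 0 rose and 7 fell in RUVBL2 knockout (median -0.40, against -0.052).

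No member was called in the remaining 10 knockouts by limma. In GAS41 knockout HLA-B was at 43.2 and 51.7 FPKM, against 25.5 and 23.5 FPKM in sgNeg2 (0.92 ± 0.23, adjusted p = 0.0665), a change as large as in TIP60 knockout but past the threshold only when the libraries were rescaled (0.94, 0.0498) or fitted alone (0.000212). There 4 of 8 members had an unadjusted p under 0.05, against 16.9% of all genes. In ACTL6A knockout TAP2 was at 13.7 and 19.4 FPKM, against 9.37 and 9.47 FPKM in sgNeg2 (0.73 ± 0.16, adjusted p = 0.0522, and 0.0383 after rescaling). Without ACTL6A guide 1 it was called (0.97, 0.0135). Of 8 members, 1 had an unadjusted p under 0.05 in ACTL6A knockout (15.6% of all genes), 3 in MRGBP (12.8%), 2 in ING3 (9.53%), 1 in DMAP1 (8.97%) and 1 in H2AZ (21.1%). The count was 0 in MEAF6 (3.65%), VPS72 (3.53%), MORF4L1 (0.768%) and MORF4L2 (2.08%).

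MRGBP knockout had the highest B2M of the libraries used in that section, at 1930 and 1490 FPKM, against 1310 and 1260 FPKM in sgNeg2 (0.40 ± 0.24, adjusted p = 0.498), with HLA-C at 21.5 and 20.3 FPKM, against 13 and 14.4 FPKM in sgNeg2 (0.57 ± 0.20, 0.232). HLA-B was above both sgNeg2 libraries in both ING3 libraries, at 39.0 and 34.8 FPKM, and in both DMAP1 libraries, at 37.7 and 30.6 FPKM. In the unused column that MEAF6 guide 2 and VPS72 guide 2 share, 6 of 8 tested members were above both sgNeg2 libraries, as were 44.0% of all tested genes. In MORF4L2 knockout the guides differed, with HLA-B at 22.6 and 38.0 FPKM, against 24.3 and 27.6 FPKM in sgNeg3 (0.17, and -0.19 without guide 2, neither called). Without MORF4L2 guide 1, HLA-C was called there (0.59, adjusted p = 0.0432).

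In H2AZ knockout 2 of 8 members, ERAP1 and TAPBP, lay below both controls in all 4 libraries, as did 15.4% of all tested genes, and neither was called. HLA-B was at 45.7, 35.4, 36.9 and 46.7 FPKM in the H2AZ libraries and at 48.4 and 36.9 FPKM in sgNeg4. ERAP1 was at 4.08, 4.57, 4.50 and 3.80 FPKM in the H2AZ libraries and at 5.97 and 5.96 FPKM in sgNeg4. ERAP1 was the member with the smallest p, lower in 4 of 4 H2AZ libraries than in both controls (-0.42 ± 0.11, adjusted p = 0.0641 by limma), with 6.02% of all genes called. Member changes ran from -0.42 to 0.17, and the 2 guides differed in 0 of 8 members (0 at an unadjusted p under 0.05, against 2.71% of all genes; 0% of all genes called). In the same knockout 5 of 15 tested interferon-stimulated genes fell and 0 rose, among them BST2 (-1.20 ± 0.23) and ISG15 (-0.52 ± 0.11).

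ERAP1 was below 0 in 15 of 16 knockouts and called in 1, BRD8. Its changes ran from -0.43 in GAS41 to 0.070 in MORF4L1. Within the sgNeg2 section every knockout shares the same pair of controls, whose ERAP1 values of 7.55 and 8.07 FPKM are the highest of that section, where the 20 libraries ran from 4.91 to 8.07 FPKM.

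Since each section was scaled on its own, sections were compared by ratios within a library. HLA-B over HLA-E, both per length, was 4.42 and 4.83 in A382_P53 and 5.49 and 5.62 in A382_PCW, against 0.542 to 4.88 in the 42 guide RNA libraries. It was 4.19 to 4.88 in the BRD8 libraries and 3.58 to 3.65 in sgNeg1, and 1.72 or lower in all guide RNA libraries of the other sections. In the sgNeg2 section the ratio was 0.542 to 0.837 in TRRAP knockout, below sgNeg2 (0.924 and 0.956), and above sgNeg2 in the other knockouts. TAP1 over TAPBP was 1.06 to 1.09 in RUVBL1 libraries and 1.10 to 1.21 in RUVBL2 libraries, against 0.654 to 0.675 in sgNeg3.

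Across the 20 libraries normalized with sgNeg2, the members fell into loose pairs. As a description over libraries that share depth, section and controls, TAP1 and TAPBP had a Pearson r of 0.90 (Spearman 0.83), HLA-B and HLA-C 0.80 (0.73) and HLA-C and B2M 0.68 (0.67). HLA-B and TAPBP had an r of 0.027, and HLA-E and TAPBP of -0.27. Genes with the highest mean r with the 8 tested members over these libraries were NAGK (0.56), a kinase of N-acetylglucosamine, TUBB3 (0.55), a neuronal beta tubulin, UCHL1 (0.55), a ubiquitin hydrolase, SSR4 (0.54), a subunit of the translocon-associated complex, and P4HB (0.54), a protein disulfide isomerase. None of these 5 stands on the lists used here, and no mean exceeded 0.56.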

How the data were processed

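The authors deposited 1 table of FPKM values for 19102 genes in 48 libraries; TopHat2, Cufflinks, Cuffdiff and hg19 are named by the submitters' processing notes, which give no versions, and the table holds no counts. Columns were matched to libraries by name (0 belonged to other samples), and depth was estimated from how far apart the lowest values of genes with 1 coding transcript lie. Blank header cells mark 5 sections, each analysed alone. The identical columns of MEAF6 guide 2 and VPS72 guide 2 were left out. In each section log2(FPKM + 1) was fitted with limma 3.58.1 in R 4.3.3 (1 level per target, empirical Bayes with intensity trend, two-sided) for genes with at least 1 FPKM in at least 2 libraries. P-values were adjusted by Benjamini-Hochberg across the tested genes and called under 0.05. Fold changes on this scale understate those of low genes. MEAF6 and VPS72, with 1 library each, are assumed to vary like the other groups. The fit was tested on simulated data.

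The members and the 9 further gene lists were chosen with earlier results of these data known. Named genes are the 9 members, called list genes with the smallest adjusted p (up to 4 per list and comparison), and the 5 most like the members. CIITA and CD276 after p53 induction, IRF1 in TIP60 knockout and PSMB8, PSMB10, RFXANK, RFXAP and RELA in a figure stand outside that rule and were chosen with their values seen. Alternatives were a pseudocount of 0.1, no filter, median rescaling, the libraries of a comparison alone, a replicate block, no intensity trend, leaving out each library and keeping the duplicated column. Promoter sequences are from RefSeq, and the interferon regulatory factor core was chosen after the windows were seen. Values of a few further genes are not reported here.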

Additional observations from a re-analysis of the deposited data

Results flagged for a closer look

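Within the 4 libraries of BRD8 or of H2AZ, 3 of 18 sets of member values had a library far from the other 3, where chance gives about 1 in 20. HLA-C was at 0.536 FPKM in BRD8 guide 1 replicate 2, a level below the filter. HLA-E was at 44.6 FPKM in H2AZ guide 2 replicate 1 and TAPBP at 39.0 FPKM in H2AZ guide 1 replicate 1, both above the other 3 H2AZ libraries.

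The column that carries the labels of both MEAF6 guide 2 and VPS72 guide 2 entered no comparison. Of its 8 tested members, 6 were above both sgNeg2 libraries, as were 44.0% of all tested genes. HLA-B was at 44.1 FPKM there, against 25.5 in the higher sgNeg2 library, and TAPBP at 36.5 FPKM, against 26.9. B2M was at 1758 FPKM, against 1310, and HLA-C at 19.9 FPKM, against 14.4. HLA-E was at 32.5 FPKM, against 26.7, and TAP1 at 21.5 FPKM, against 18.5. Which library the column belongs to was not tested.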

How the results depend on the processing

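Of 1849 member values under an alternative, 57 lost a call, 27 gained one and 98 changed sign, of which 0 were called in either fit. HLA-B in MORF4L2 knockout, for example, was -0.19 without guide 2 and 0.17 as reported. The cause of the changes below was not tested. Counts of members called moved as follows. In BRD8 knockout the count was 5 and became 3 with guide 2 alone, an alternative added after the data were seen, and 3 to 5 with 1 library left out. With no filter on low values it became 0 in EP400 knockout (1 as reported), 1 in TRRAP (2), 1 in RUVBL1 (2) and 1 between TIP60 and EP400 (2). With the libraries of the comparison alone it became 3 in EP400 (1), 1 in TRRAP (2), 2 in GAS41 (0), 1 in ACTL6A (0), 1 in ING3 (0), 5 in RUVBL1 (2), 6 in RUVBL2 (2) and 0 between TIP60 and EP400 (2). Median rescaling gave 1 in GAS41 and in ACTL6A (0 in both). With 1 library left out the range was 0 to 0 in EP400, 2 to 3 in TIP60, 0 to 4 in TRRAP, 0 to 1 in ACTL6A, RUVBL1, RUVBL2 and MORF4L2, 0 to 2 between TIP60 and EP400 and 0 to 2 between EP400 and TRRAP. Where 1 library remained, it was assumed to vary like the other groups.

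The labels do not say whether libraries with the same replicate number share more than the number. Their deviations had correlations from -0.243 (ACTL6A) to 0.6 (MRGBP), with 0.48 in TIP60. Whether they share a batch was not tested. With a replicate block the count of members called was 3 in RUVBL1 knockout, where ERAP1 was added (-0.33, adjusted p = 0.0343), and the other counts of members were as reported.

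Calls over all genes moved by more than 1.5 times as follows. With the libraries of the comparison alone they were 6077 in RUVBL1 (3077 as reported), 6776 in RUVBL2 (3698), 1669 in EP400 (436), 1053 in GAS41 (107), 304 in ACTL6A (89), 4 in MRGBP (30), 183 in ING3 (3), 14 in DMAP1 (0), 49 in MEAF6 (0), 26 in VPS72 (0), 1540 between TIP60 and EP400 (2421), 2527 between TIP60 and TRRAP (4351), 2 between EP400 and TRRAP (372) and 191 between RUVBL2 and RUVBL1 (1). With no filter they were 153 in EP400, 3 in GAS41, 33 in ACTL6A, 14 in MRGBP, 24 in MEAF6, 21 in VPS72, 2 in MORF4L1 (0), 235 between EP400 and TRRAP, 6 between RUVBL2 and RUVBL1 and 0 between the BRD8 guides (1). A pseudocount of 0.1 gave 12 in MRGBP and 9 in ING3, no intensity trend 16 in MRGBP, and median rescaling 34 between the BRD8 guides and 1 in DMAP1. H2AZ had 146 with guide 1 alone and 247 with guide 2 alone (667), both added after the data were seen. The replicate block gave 5 in ING3, 1 in DMAP1, 1 in MORF4L2, 570 between EP400 and TRRAP, 2 between RUVBL2 and RUVBL1 and 3 between the BRD8 guides, and the duplicated column, if kept, 1 in MEAF6. With 1 library left out they were 2325 to 3834 in BRD8 (3885), 324 to 1176 in H2AZ, 9 to 48 in EP400, 72 to 2377 in TRRAP (1621), 0 to 25 in GAS41, 0 to 380 in ACTL6A, 2 to 238 in MRGBP, 1 to 4 in ING3, 0 to 40 in DMAP1, 859 to 1987 in RUVBL1, 1652 to 1848 in RUVBL2, 0 to 1315 in MORF4L2, 943 to 2268 between TIP60 and EP400, 0 to 1064 between EP400 and TRRAP, 0 to 0 between RUVBL2 and RUVBL1 and 1 to 2 between the BRD8 guides. For p53 induction, BRD8 and H2AZ the fit holds only the libraries of the comparison, so fitting those alone gave no further value. In TIP60 knockout median rescaling moved the median over all genes to 0.0085, with -0.095 as reported. Rescaling together with a fit of these 4 libraries alone, also added after the data were seen, left HLA-E uncalled there (0.56, adjusted p = 0.078). No interval for counting error can be given, since the table holds no counts, and HLA-F lies at a depth of 5.38 fragments per kilobase or less.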
